A study of Mus musculus with 1536 samples.

Results

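The genes described here encode the machinery that cuts, transports and loads peptides onto major histocompatibility complex (MHC) class I molecules, read in single lymphatic endothelial cells (LECs) of the mouse nasopharynx. They were chosen by symbol from the deposited matrix, and all 10 symbols of 23168 were found. H2-K1, H2-D1 and H2-T23 encode class I heavy chains, B2m the light chain beta-2-microglobulin, Tap1 and Tap2 the peptide transporter, Tapbp the loading chaperone tapasin, Psmb8 and Psmb9 catalytic subunits of the immunoproteasome, and Nlrc5 the transactivator of class I genes. Each gene was described over all adult cells and set against the mean natural log (ln) value of Isg15, Usp18 and Ifit1, 3 genes induced by type I interferon, called the interferon score below.

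Class I molecules show peptides of a cell's own proteins at its surface to CD8+ T cells. The proteasome cuts the proteins, the TAP transporter moves the peptides into the endoplasmic reticulum, tapasin holds the transporter beside an empty heavy chain, and beta-2-microglobulin stabilizes the loaded complex. Interferons are known to raise these genes together, and lymphatic endothelium is known to present self antigens on class I molecules.

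The cells came from C57BL/6 mice of both sexes (aged 10 to 12 weeks), whose nasopharyngeal tissue was pooled from 30 animals. Cells positive for CD31 and PDPN were sorted into plates, and each was read with Smart-seq3, which makes full-length cDNA from single cells. No treatment or second group entered these values, and aged mice were not analysed here. The labels name neither animal nor plate, so all cells were 1 sample, standard deviations (SD) describe the spread over cells, and no p-value was computed.

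The matrix holds about 840 cells (54.8% of about 1500 wells), with 7433 to 3524358 reads per cell (median 350746) and 2001 to 7236 genes found per cell (median 4186.5). All 7 LEC markers examined, among them Prox1, Flt4 and Pdpn, were found in at least 86.8% of the cells. None of 8 immune markers was found in 10% of the cells, Ptprc and Cd3e were at 0 in all cells, and 2 cells held 3 or more of these markers, whose summed level ranged from 0 to about 280 reads per 10000. Markers of blood endothelium, fibroblasts, epithelium and mural cells were also examined. Only the blood endothelial marker Plvap (77.8%) and the fibroblast marker Dcn (12.4%) were found in at least 10% of the cells. Cells with 3 or more markers of a list numbered 4 for blood endothelium, 2 for fibroblasts, and 0 for epithelium and for mural cells. Reads of Xist and of a Y chromosome gene were present together in 52 wells, and no doublet caller was run. A gene was called found in a cell with at least 1 read. Because shallow cells miss low genes, shares were also taken after thinning 93.9% of the cells, about 790, to 20000 reads each (the 51 shallower cells were left out).

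The genes lay in a few places in the genome (GRCm38, the build the reads were aligned to). The class I heavy chain genes and the peptide supply genes are on chromosome 17, 8 of the 10 in all, B2m is at chr2:122147686-122153083 and Nlrc5 at chr8:94434356-94527272. Psmb9 (chr17:34181987-34187764, minus strand), Tap1 (chr17:34187553-34197225), Psmb8 (chr17:34197721-34201454) and Tap2 (chr17:34203527-34216321) follow each other directly, with Tapbp at chr17:33915899-33929292 and H2-K1 at chr17:33996017-34000347. H2-D1 (chr17:35262730-35267499) and H2-T23 (chr17:36029773-36032855) lie further along the chromosome.

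The promoter sequences are shown because class I heavy and light chain genes are known to be driven from compact elements next to their start sites. They come from RefSeq (GRCm38.p6), whose promoter table held 8 of the 10 genes. Tap2 and Nlrc5 had no entry. The bases before the start sites of H2-K1 (chr17:34000348-34000537, minus strand) and B2m (chr2:122147497-122147685, plus strand) are given 5′ to 3′, with capitals marking every match, on either strand, to the motifs AANNGAAA (the core bound by interferon regulatory factors), GGGGATTCC (an NF-kappaB site), CCAAT (the CCAAT box) and TGACG (the core of a CREB site).
H2-K1: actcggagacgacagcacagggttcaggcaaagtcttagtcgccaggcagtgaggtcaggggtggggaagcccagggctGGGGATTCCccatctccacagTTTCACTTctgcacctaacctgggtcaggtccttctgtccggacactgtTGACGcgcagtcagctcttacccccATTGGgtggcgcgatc
B2m: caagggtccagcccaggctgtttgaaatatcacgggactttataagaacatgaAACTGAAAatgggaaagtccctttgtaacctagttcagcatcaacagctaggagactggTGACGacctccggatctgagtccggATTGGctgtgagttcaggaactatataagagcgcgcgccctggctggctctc

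The most upstream pair of marked elements of H2-K1 was shared with H2-D1. The stretch from the NF-kappaB site to the interferon regulatory factor core is shown for H2-K1 (chr17:34000430-34000458, minus strand) and H2-D1 (chr17:35262923-35262951, plus strand), and 28 of its 29 bases were identical. The H2-D1 element lies before the RefSeq start site but inside the H2-D1 gene as given above, because another GENCODE M21 transcript starts further upstream.
H2-K1 element: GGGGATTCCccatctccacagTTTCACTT
H2-D1 element: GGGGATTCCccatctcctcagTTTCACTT

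Over the 190 bases before each start site, H2-K1 and H2-D1 aligned over about 130 bases with 90.7% identity and 0 gaps. Of the 8 members with a promoter, 4 (H2-K1, H2-D1, H2-T23 and B2m) held AANNGAAA within 250 bases of the start site, against 21.3% of 32851 promoters. GGGGATTCC was held by 2 (H2-K1 and H2-D1) against 0.213%, CCAAT by 7 (not by Psmb8) against 33.8%, and TGACG by 5 (H2-K1, H2-D1, B2m, Tap1 and Psmb9) against 17.8%. No marked match overlapped another. The start sites of Tap1 and Psmb9 point away from each other and are about 230 bases apart, so by RefSeq these genes share 1 upstream stretch, which held CCAAT and TGACG but no AANNGAAA. In GENCODE M21 another transcript of Psmb9 starts further out, on the Tap1 side, so the gene coordinates given above overlap and this stretch lies in an exon of that transcript. The CCAAT and TGACG matches of Tap1 and Psmb9 are those of this shared stretch and were counted for both genes. The motifs were chosen after the sequences were seen, so the shares over all promoters do not test them. A match of letters is a description of the sequence and not a measured binding site.

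Transcripts of the class I heavy and light chains were near-universal, and protein was not measured. H2-D1 had an ln value of 3.47 ± 0.59 (SD over about 840 cells) and was found in all of them. Its lowest, median and highest ln values were 0.29, 3.52 and 4.96. H2-K1, the other classical heavy chain, had an ln value of 2.88 ± 0.82 and was found in 99.6% of the cells (95% exact interval 99 to 99.9), with ln values from 0 through a median of 3.02 to 4.71. Intervals given here cover counting error only, and reads are not independent molecules. B2m had an ln value of 3.29 ± 0.74, was found in 99.9% of the cells and ranged from 0 through a median of 3.35 to 5.50. On the linear scale the 10th and 90th percentiles of B2m were 10.3 and 62 reads per 10000, so light chain transcripts differed several-fold between cells that nearly all had them. H2-T23, the non-classical heavy chain (Qa-1) seen by inhibitory receptors of natural killer cells, was lower, at an ln value of 1.94 ± 0.86, and was found in 97.4% of the cells (96.1 to 98.4). Its ln values ran from 0 through a median of 2.08 to 3.72. These 4 genes were the members found in at least 90% of the cells, a share that 2.15% of all genes reached.

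Transcripts of the peptide supply genes were lower and patchier. Tapbp was found in 88.6% of the cells (86.3 to 90.7) at an ln value of 0.91 ± 0.62, and Tap2 in 75.5% (72.5 to 78.4) at 0.65 ± 0.62. Tap1, the other subunit of the same transporter, was found in 34.8% (31.6 to 38.1) at 0.24 ± 0.48. The transporter subunits therefore stood apart in how often they were found, and thinning to equal depth left 58.4% of the cells with Tap2 and 23.4% with Tap1. Psmb8, the immunoproteasome subunit that takes the place of Psmb5, was found in 62.5% of the cells (59.1 to 65.8) at 0.54 ± 0.61. Psmb9, which takes the place of Psmb6, was found in 35.2% (31.9 to 38.5) at 0.31 ± 0.55. Nlrc5 was found in 29.6% (26.5 to 32.8) at 0.13 ± 0.31 and never exceeded 5.98 reads per 10000. The median level over cells was 0 for Tap1, Psmb9 and Nlrc5. For the low genes a share depends on depth: in thinned cells Psmb8 was found in 49.8%, Psmb9 in 26.2% and Nlrc5 in 17.1%.

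**Figure D1:**
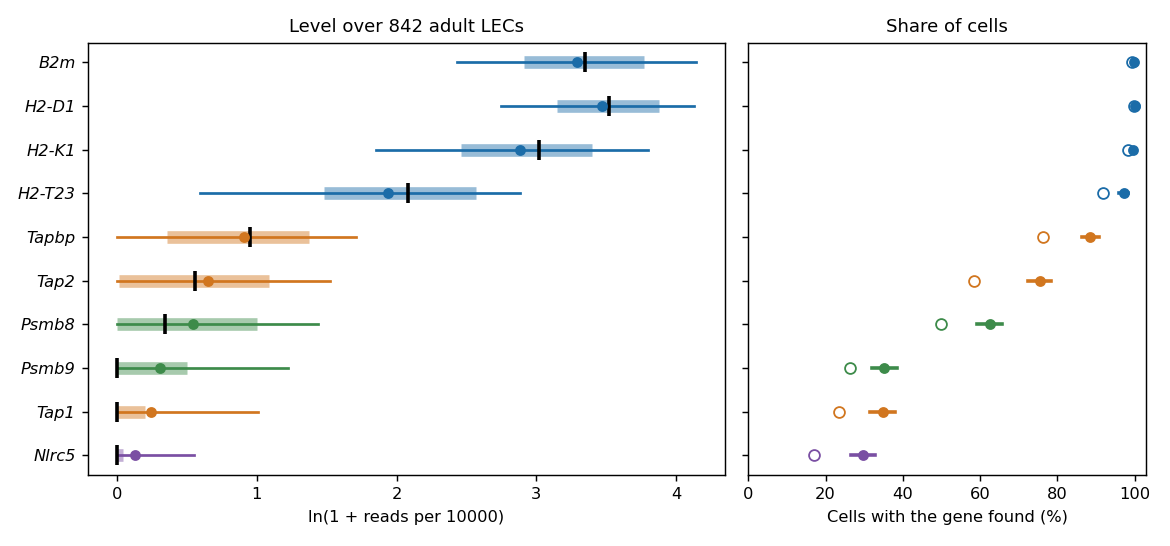
Levels of the 10 genes over all cells (n in the panel title). Left, ln(1 + reads per 10000): thick bars span the 25th to 75th percentile, thin lines the 10th to 90th, black ticks mark the median and points the mean. Right, percent of cells with at least 1 read: filled points with 95% exact intervals are all reads, open points are the cells thinned to 20000 reads. Heavy and light chains sit at the top, and Psmb9, Tap1 and Nlrc5, with a median of 0, at the bottom. Genes are ordered by reads per 10000 per kb.

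Full-length libraries give more reads to longer transcripts, so genes were ordered by mean reads per 10000 per kb of exon. The order was B2m at 38.1, H2-D1 at 14.2, H2-K1 at 7.62, H2-T23 at 2.91, Tapbp at 0.556, Tap2 at 0.367, Psmb8 at 0.333, Psmb9 at 0.184, Tap1 at 0.0921 and Nlrc5 at 0.0259, a range of about 1500-fold. The step from H2-T23 to Tapbp (a gap of 2.36) was the only one larger than both neighbours' SD over cells (2.34 for H2-T23). The other 8 steps lay within the larger SD of the pair. Within single cells B2m was above H2-D1 per kb in 90.9% of the cells, H2-D1 above H2-K1 in 88.1%, H2-K1 above H2-T23 in 81.8% and H2-T23 above Tapbp in 87.2%. Among the low genes many cells had no reads of either gene, and such ties counted as not above. Tapbp was above Tap2 in 64.3% of the cells, Tap2 above Psmb8 in 48.9% and Psmb8 above Psmb9 in 50.1%. Psmb9 was above Tap1 in 29.8% and Tap1 above Nlrc5 in 30.6%. The shares in the reverse direction were not counted, so these values do not show whether the order held among untied cells. On average the 10 genes took 1.06% of a cell's reads, and 86.5% of that share was H2-K1, H2-D1 and B2m.

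Some of these levels depend on how reads were assigned. Of the 75-base windows in the transcripts of H2-K1, H2-D1 and H2-T23, 3.1%, 5.56% and 5.91% also occur in other genes, mostly other class I genes such as H2-Q10 and H2-Q1, and of those of B2m 0. Without strand, which is not given in the sources used here, reads of overlapping genes cannot be told apart. This concerns Tap1 with Psmb9 (windows shared: 2.4% and 3.44%), Psmb8 with Gm20496 (9.97%), Tap2 with Gm15821 and Gm20496 (8.27%), and Tapbp with Gm19412 (17.5%). Tapbp also overlaps Zbtb22 on the same strand, where strand would not separate the reads, and 18.6% of its windows occur in 3 other genes in all.

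A typical cell held reads of most of the machinery but seldom of all of it. The number of members found per cell ranged from 2 to 10 with a median of 7, and all 10 were found together in 45 cells (5.34%). In thinned cells the median was 6 and 12 cells (1.52%) held all 10. In the few pairs examined, a low member was found more often in cells that held the other. These shares come from 1 sample and were not tested, and the same shares for other gene pairs were not computed. Tap1 and Psmb9 also overlap, so some of their reads cannot be told apart without strand. Among thinned cells, Tap2 was found in 68.1% of the cells with Tap1 reads and in 55.4% of those without. Psmb9 was found in 37.8% of the cells with Tap1 and 22.6% of those without, and in 33.2% of the cells with Psmb8 against 19.1% of those without. Neither transporter subunit was found in 34.1% of thinned cells.

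Transcripts of the classical heavy chains and the light chain varied together, and those of the other members followed them weakly. Pearson's r of the ln values over about 840 cells was 0.59 between H2-K1 and B2m, 0.59 between H2-D1 and B2m, and 0.52 between H2-K1 and H2-D1. The points share 1 library preparation and their depth, and at 20000 reads per cell these values were 0.51 to 0.57. The other 42 pairs had r between 0.04 and 0.28, and all 45 were above 0 with a median of 0.16. The same r over pairs of other genes was not computed, so this count has no background beside it. Tap1, Tap2, Tapbp, Psmb8, Psmb9 and Nlrc5 had far fewer reads, and the part of sparse counts in their lower r was not tested. H2-T23 was among the weakly related genes, with r of 0.25 to B2m, 0.24 to H2-D1 and 0.17 to H2-K1. Psmb8 was the peptide supply gene closest to the genes of the classical molecules (0.28 to H2-K1, 0.27 to H2-D1 and 0.26 to B2m). Tap1 and Psmb9 had r of 0.16, and Nlrc5 had its highest r with Tap1 (0.21).

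**Figure D2:**
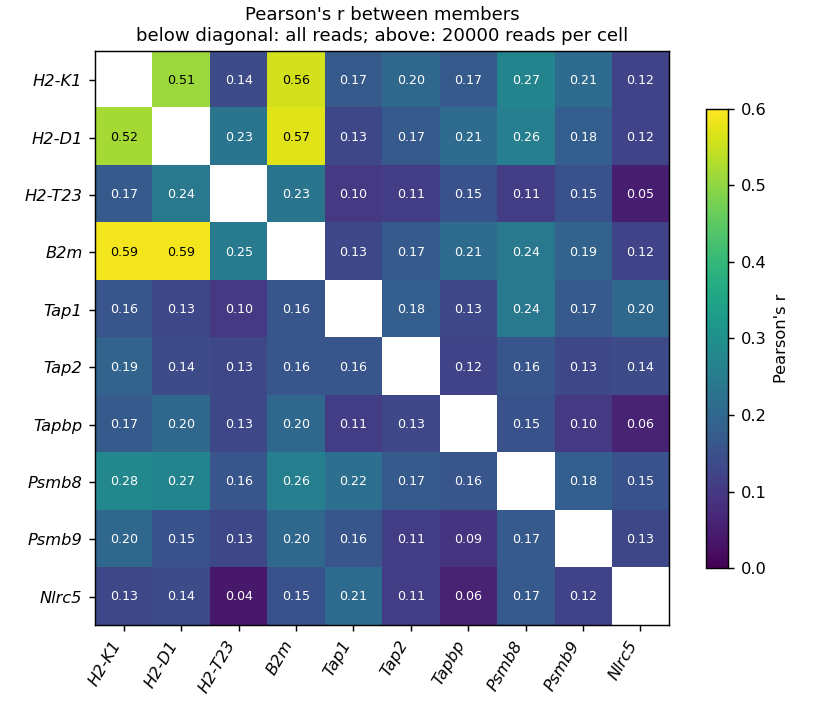
Pearson's r of the ln values for each pair of the 10 genes, below the diagonal over all cells with all reads and above it over the cells thinned to 20000 reads. H2-K1, H2-D1 and B2m form the only block over 0.5, and the remaining pairs reach at most 0.28.

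The interferon score had a mean of 0.40 ± 0.53 (SD) and was 0 in 26.8% of the cells. Its r with log10 total reads was -0.02. All 10 members had a positive r with the score, as had 48.9% of all genes whose reads reached at least 10% of the cells, and their median r was 0.17 against -0.00092 over all those genes. Psmb8 had the highest value (0.27, place 36 among these genes), followed by Tap1 (0.22), Tap2 (0.21), B2m (0.19) and H2-T23 (0.19). Nlrc5 had 0.16, H2-K1 0.15, Tapbp 0.14 and H2-D1 0.12, and Psmb9 the lowest value, 0.09. At or above the value of Psmb9 lay 1.89% of all genes.

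An r of at least 0.2 was reached by 3 members, Psmb8, Tap1 and Tap2, beside 0.622% of all genes tested (0.303% where genes with reads in at least 3 cells were tested). At 20000 reads per cell the 3 were Psmb8 (0.27), Tap1 (0.21) and H2-T23 (0.20), beside 0.636% of 7703 genes. B2m, H2-T23 and Tap2 lay so near the threshold that the list of names moves with depth. The genes closest to the score were interferon-induced genes outside the machinery, led by Rtp4 (0.57), Ifit3 (0.50) and Ifi44 (0.48), so every member followed the score less closely than these. Without the 43 cells (5%) with the highest score, 1 member stayed at or above 0.2, with Tap1 at 0.15 and Tap2 at 0.13.

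**Figure D3:**
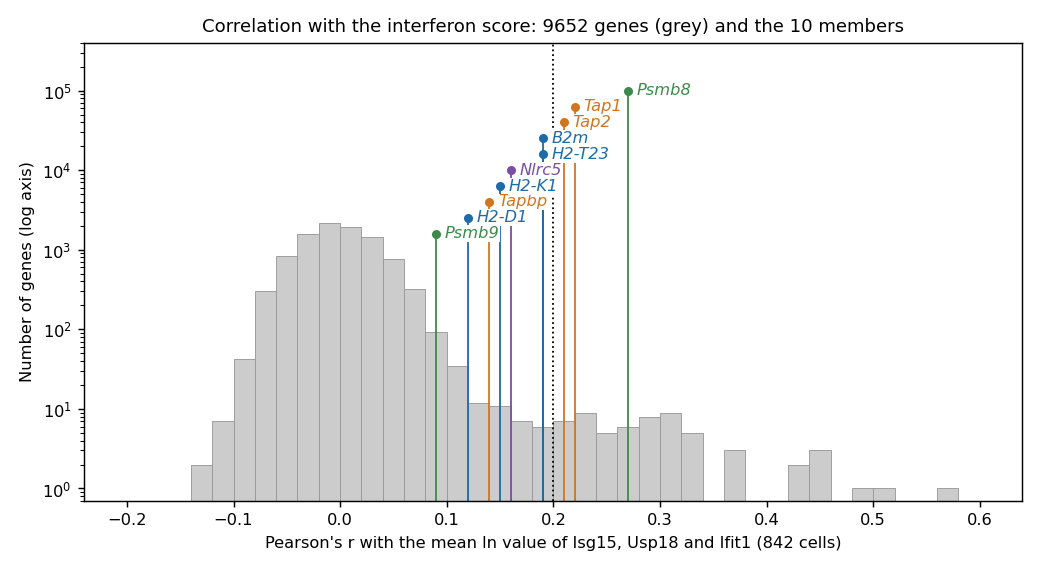
Pearson's r with the interferon score for all genes with reads in at least 10% of the cells (grey histogram, log count axis, bins of 0.02) and for the 10 genes (labelled stems, whose heights only separate the labels). The dotted line marks 0.2. All 10 lie to the right of the bulk of genes, from 0.09 for Psmb9 to 0.27 for Psmb8, and short of the highest values, which reach 0.57.

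Cells were next set apart by how many of the 3 score genes had reads, after thinning: 44.8% of the cells had 0, 35% had 1, 12.3% (97 cells) had 2 and 7.96% (63 cells) had 3. These are ranges of sparse counts, not cell types, and the median total reads before thinning were 439320, 384914, 486643 and 424287. Tap1 averaged 0.308, 0.478, 0.789 and 1.25 reads per 10000 in these groups, 4.07-fold from the first to the last. Psmb8 averaged 0.744, 1.03, 2.10 and 2.02, and was found in 37.9% of the cells with 0 score genes and 69.8% of those with 3. Nlrc5 averaged 0.172, 0.209, 0.247 and 0.595, so its step came at 3 score genes. Psmb9 was highest at 2 score genes (0.547, 0.605, 1.07 and 0.802).

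The abundant members differed by smaller factors. B2m averaged 29.3, 34.4, 37.9 and 40.6 reads per 10000 (1.38-fold from 0 to 3 score genes), H2-T23 7.14, 8.45, 10.7 and 11.1 (1.56-fold), H2-K1 20.2, 24, 26 and 24.4 (1.21-fold) and H2-D1 34.2, 37.7, 41.5 and 38.1 (1.11-fold). The ln value of B2m was 3.14 ± 0.83 with 0 score genes and 3.61 ± 0.51 with 3, a difference smaller than either SD over cells. With Tap2 (1.89-fold) and Tapbp (1.52-fold), 6 of 10 members were at least 1.5-fold higher in cells with 3 score genes, beside 7.79% of the 7703 genes. Their median ratio was 1.54, against 0.955 over all those genes. Proteasome and chaperone genes not known as interferon targets gave ratios near 1: Psmb5 0.932, Psmb6 1.14, Psmb7 1.05, Canx 0.981, Calr 1.08 and Pdia3 0.993.

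**Figure D4:**
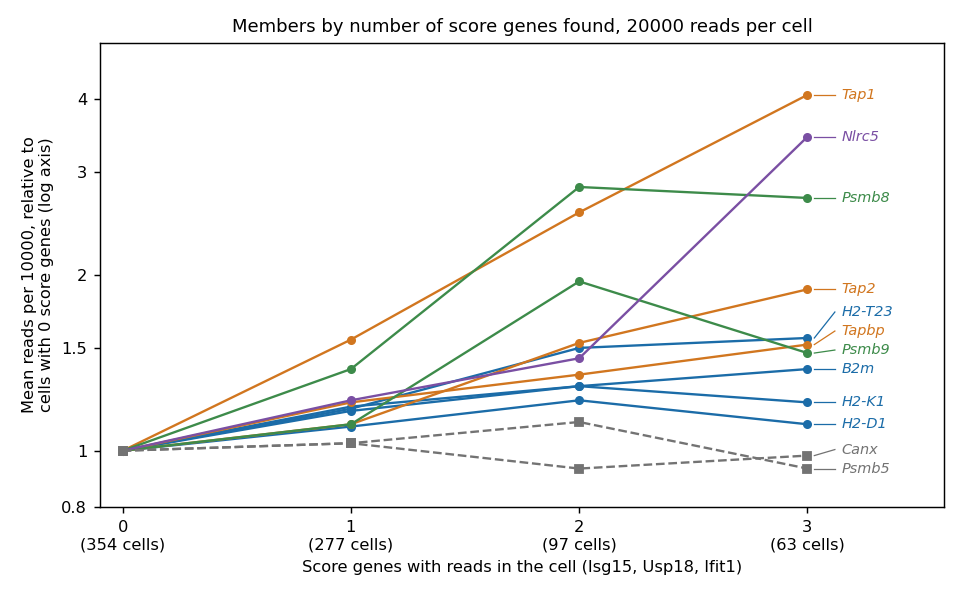
Mean reads per 10000 of each gene relative to cells with 0 score genes (log axis), by the number of score genes with reads, over the cells thinned to 20000 reads. Solid lines are the 10 genes, and dashed grey lines are the constitutive proteasome gene Psmb5 and the chaperone gene Canx. Tap1, Nlrc5 and Psmb8 end highest (4.07, 3.45 and 2.71), H2-D1 lowest of the 10 (1.11), and the grey lines end at 0.932 and 0.981.

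Pathway lists placed these values beside their partners, with 0.622% of all genes at an r of at least 0.2 as background. Of the 14 constitutive proteasome core genes, 0 reached an r of 0.2 with the score, with a median of 0.01 and values from -0.04 to 0.04. The immunoproteasome and PA28 list had 1 of 5 (Psmb8). The others, Psmb10 (0.08), which takes the place of Psmb7, and the PA28 activator genes Psme1 (0.10) and Psme2 (0.10), lay with Psmb9. Of 11 peptide transport and loading genes 2 reached it, Tap1 and Tap2, and the list's median was 0.01: Calr had 0.02, Canx -0.01, Pdia3 0.00 and the peptide trimming enzyme Erap1 0.04. Of 11 class I transcription genes found in 10% of the cells 0 reached it, Nlrc5 being highest and Irf1 next (0.10), while the NF-kappaB subunit Rela had -0.04. Among interferon signalling genes, Irf7 (0.44), Irf9 (0.37) and Stat2 (0.33) reached it. The receptor genes Ifnar1 (-0.02) and Ifngr2 (-0.05) did not.

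Level and r with the score did not run in parallel among the members. H2-D1, found in all cells, had a lower r than every other member but Psmb9, and Tap1, found in 34.8%, had a higher one than every other member but Psmb8. The coefficient of variation of the reads per 10000 over cells ran from 0.555 for H2-D1 to 2.96 for Nlrc5.

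To see whether the machinery differed between kinds of LEC, the cells were clustered with all members and the class I and interferon lists left out of the clustering genes. This gave 5 clusters, named from markers and only as like a class. These names are rebuilt and may differ from the study's. Cluster 1 (39.5% of the cells) was precollecting or collecting-like, cluster 2 (25.1%) Ptx3+ capillary-like, clusters 3 (23.9%, 3 of 5 markers) and 4 (6.06%, 51 cells, 5 of 5) Ptx3- capillary-like, and cluster 5 (5.46%, 46 cells, 3 of 7 markers) valve-like, with Slc41a1 and the stress gene Gdf15 leading it. The markers raised in cluster 3 were Lyve1, Reln and Ccl21a. Fndc1 and Ptn of the same list, by which the study annotated its Ptx3- capillary LECs, were raised in cluster 4 but not in cluster 3. The study annotated precollecting LECs by Foxp2 and Lyve1, so the name of cluster 3 is uncertain. Markers raised in cluster 1 were Foxp2, Igfbp5, Apoe, Clca3a1 and Gja4. Gja4 served the study, with Cldn11, to annotate downstream-valve LECs, so the name of cluster 1 is uncertain as well. The median reads of clusters 1 to 5 were 351792, 286454, 317771, 552080 and 314032, and the part of depth in the differences between them was addressed only by thinning. The mean interferon score was 0.41, 0.41, 0.40, 0.26 and 0.40.

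Transcripts of the classical class I molecule had their highest level in cluster 2 and their lowest in cluster 4. H2-K1 averaged 32.2 reads per 10000 in cluster 2 (ln value 3.32 ± 0.64) and 9.1 in cluster 4 (1.95 ± 0.95), 3.54-fold apart, with 20.6, 18.2 and 22.9 in clusters 1, 3 and 5. B2m averaged 45.8 in cluster 2 and 20.2 in cluster 4, with 27.8, 29.5 and 37.5 in clusters 1, 3 and 5. H2-D1 had the same highest and lowest cluster with a narrower range, 45 against 25.7. The ln difference between these clusters exceeded each SD over cells for H2-K1 (1.37) and B2m (0.95), and for H2-D1 (0.51) it did not exceed the SD in cluster 2. Both clusters are capillary-like, so this contrast ran between groups of capillary-like cells.

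H2-T23 went the other way. It was lowest in cluster 2 (5.88 reads per 10000) and highest in clusters 5 (12.9) and 1 (9.92), so the heavy chains did not share a pattern over the clusters. By mean reads per 10000, Tap1, Psmb8 and Nlrc5 were highest in cluster 2 and lowest in cluster 5. Tap1 averaged 0.617 and 0.201, Psmb8 1.36 and 0.55, and Nlrc5 0.279 and 0.13. Other measures of these sparse genes differed. Nlrc5 had a lower mean ln value in cluster 4 (0.07) than in cluster 5 (0.10), and was found in 15.7% and 32.6% of their cells. Psmb8 had a mean ln value of 0.32 in both, and was found in 41.2% and 43.5%. The other peptide supply genes did not share this order of mean reads. Tap2 ranged from 1.06 in cluster 3 to 1.59 in cluster 2, Tapbp from 1.35 in cluster 4 to 2.16 in cluster 1, and Psmb9 from 0.289 in cluster 4 to 0.772 in cluster 3. Cluster 5 thus combined the highest mean reads of H2-T23 with the lowest of Tap1 and Psmb8, at a mean interferon score like that of clusters 1 to 3.

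At least 1.5-fold higher than in all other cells were 2 members in cluster 2 (H2-K1 1.69-fold and B2m 1.61-fold), beside 9.03% of all genes, and 1 was at least 1.5-fold lower (H2-T23, ratio 0.635), beside 10.9%. In cluster 4, 5 members were lower (H2-K1 at 0.392, Psmb9 at 0.414, Tap1 at 0.558, B2m at 0.60 and Tapbp at 0.655), beside 21.7% of all genes, and 0 higher, beside 13.3%. In cluster 5, 4 were lower (Tap1, Psmb8, Nlrc5 and Psmb9, ratios 0.384 to 0.581), beside 26.3%, and 1 higher (H2-T23, 1.58-fold), beside 12%. Clusters 1 and 3 had 0 members past 1.5-fold in either direction, beside 6.76% higher and 8.2% lower in cluster 1 and 6.16% and 8.85% in cluster 3. In 4 other clusterings and depths, the ratio in the cluster with most Stab2 stayed between 1.66 and 1.68 for H2-K1, 1.57 and 1.61 for B2m, and 0.613 and 0.655 for H2-T23. In the cluster with most Fndc1 it was 0.355 to 0.406 for H2-K1 and 0.562 to 0.609 for B2m.

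**Figure D5:**
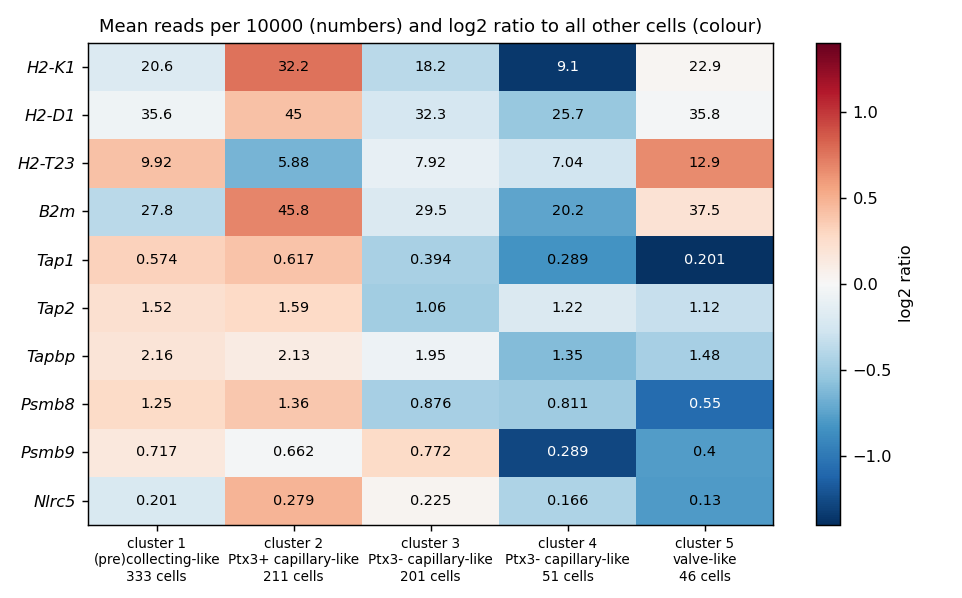
Mean reads per 10000 of each gene in the 5 clusters (numbers) and the log2 ratio of that mean to all other cells (colour, red higher, blue lower). Cluster 2 is red for H2-K1 and B2m and blue for H2-T23, cluster 4 is blue for H2-K1 and Psmb9, and cluster 5 is red for H2-T23 and blue for Tap1 and Psmb8.

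The relation to the interferon score was also read inside each cluster. The median r of the members was 0.19, 0.18, 0.15, 0.03 and 0.25 in clusters 1 to 5, with 10, 9, 10, 5 and 9 of the 10 above 0. The share of all genes above 0 inside each cluster was not computed. Clusters 4 and 5 hold 51 and 46 cells, so the clusters cannot be ranked by these counts. Psmb8 was positive in each (0.24, 0.26, 0.31, 0.40 and 0.33). Tap1 ranged from 0.43 in cluster 3 to -0.08 in cluster 4, which has 51 cells. H2-K1 had 0.20 in cluster 1 but -0.02 in cluster 2, where its level was highest.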

How the data were processed

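The data are 1 matrix of about 840 adult LECs. Per the labels and methods, the authors used STAR for alignment to mm10, featureCounts (Subread) for counting per gene and Seurat 4.1.0 for normalization, after dropping cells with fewer than 2000 genes or more than 10% mitochondrial reads. The deposited values are on a natural log scale: each is ln(1 + reads per 10000). The methods name a log2 step, but the natural log gives a sum of 10000 in each cell. How strand and multi-mapping reads were treated, and which annotation was used, is not given in the sources used here. No use of molecular identifiers is stated, so the values are taken as reads.

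Whole reads were recovered (100% of values within 0.01). Means, SD, Clopper-Pearson intervals at 95%, and Pearson's r were computed per gene over cells, and r over all genes found in at least 10% of cells gave the background. Clustering used Seurat 5.3.0 in R 4.3.3 (2000 vst genes less 26 listed genes, total reads, mitochondrial share, dissociation and ribosomal scores regressed out, 15 components, Louvain, resolution 0.4). Markers with a log2 ratio of 0.3 or more and reads in 30% or more of a cluster's cells were called raised, and a name needed 3. Counts of cells and bases given with about are rounded to 2 digits. Lengths and coordinates are from GENCODE M21, in which all 10 members matched. Python 3.11.15, NumPy 2.4.6, pandas 2.3.3, SciPy 1.17.1 and Matplotlib 3.10.9 were used, and the steps were tested on simulated data.

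The members and lists were chosen with earlier results of these data known, and the motifs after the sequences were seen. Besides the 10 members, the 3 genes most like each and up to 4 genes per list (highest and lowest r or level) are named by rule. Further genes, the factors of interferon signalling and the gene list partners among them, were named after their values were seen. The full count of the interferon signalling list is not reported here. Alternatives covered the score, the measure, depth, cell filters, pseudocount, lengths and clustering.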

Additional observations from a re-analysis of the deposited data

How the results depend on the processing

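The number of members with r of at least 0.2 with the interferon score (3) depended on the measure. It was 1 with Spearman's rho (beside 0.477% of all genes), 1 with Isg15 alone (0.445%), 1 with Usp18 alone (0.487%), 0 with Ifit1 alone (0.435%), 8 with the mean of 19 other interferon genes as the score (0.591%), and 1 without the 5% of cells with the highest score (0.321%). Over genes found in at least 3 cells the background was 0.303% in place of 0.622%. Across 14 alternatives, 140 of 140 member values were above 0, and the median over members lay between 0.13 and 0.24. Psmb8 had the highest r of the members in 12 of the 14. B2m reached 0.34 with the other interferon genes. The alternatives within clusters, and without the 51 shallow cells, were chosen after seeing the data. The order per kb kept 8 of 10 places with the longest transcript as length and 8 with medians. In the cluster with most Fndc1, 5 of 40 ratios moved by over 1.5 times (of Psmb9, Nlrc5, Tap2 and Psmb8), the cause was not tested, and all 40 stayed below 1. The 5 members at least 1.5-fold lower there became 7 with the listed genes kept (Psmb8 and Nlrc5 added, beside 22.7% of all genes), 6 with 1000 variable genes (Nlrc5 added, 22.8%), 7 after thinning (Tap2 and Psmb8 added, 20.5%) and 5 at a resolution of 0.8 (20.8%). Leaving out single animals or plates could not be done, since none is named, and no paired analysis was possible because there is 1 group. Thinning lowered the share of cells with Tap2 from 75.5% to 58.4% and that with Nlrc5 from 29.6% to 17.1%, so depth limits the shares of the low members.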

Other observations

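Other class I genes were examined from a list of 17. H2-Q4, H2-Q6 and H2-Q7, heavy chain genes of the Q region, were found in 87.5%, 51.5% and 52.9% of the cells, and Fcgrt, the class I-like neonatal Fc receptor, in 98.3% at an ln value of 1.92 ± 0.73. H2-M2 was at 0 in all cells, which allows a share of cells with reads of up to 0.356% when a count of 0 is taken to allow 3 cells (95% exact upper bound 0.437%). Of the 11 found in at least 10% of the cells, 1 reached an r of 0.2 with the interferon score (H2-T22, 0.21). This stood beside 0.622% of all genes, and the median of the 11 was 0.06. H2-Q7 had an r of 0.05 with the score although it was the gene closest to H2-K1 (0.44) and H2-D1 (0.41) outside the members over the thinned cells. Reads of near-identical Q region copies may have been split or shared by the counting.

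The genes outside the members most like each of them over the thinned cells, of 5080 found in at least 20% of them, fell into a few names. Ly6e was among the nearest 3 for 8 members, from 0.45 for B2m to 0.19 for Psmb9, and was not for Tap1 and Nlrc5. Tap1 was nearest to Iigp1 (0.24), Parp14 (0.19) and Igtp (0.18), and Nlrc5 to Igtp (0.22), Iigp1 (0.21) and Gbp7 (0.18). Iigp1, Igtp and Gbp7 encode GTPases known to be raised by interferon gamma. H2-T23 was nearest to Ifitm3, Ly6e and Ifi27l2a (each 0.33). Isg15, which is part of the score, was the gene outside the members nearest to Psmb8 (0.26).

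In a list of genes mostly raised by interferon gamma, 9 were found in at least 10% of the cells. An r of 0.2 with the score was reached by 6 of them, among them Gbp3 (0.31) and Irgm1 (0.31). The median over the 9 was 0.29. Of 14 other interferon genes 14 reached it, with a median of 0.35. Both counts stand beside 0.622% of all genes, and which interferon was involved was not tested. Class II genes were scarce. Cd74 was found in 13.9% of the cells and H2-Ab1 in 9.14%, with Ciita, the class II transactivator, in 0.713%.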
